A study of Mus musculus with 16 samples.

Results

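The genes that flank the endothelin receptor B gene (Ednrb) on mouse chromosome 14 were described in WT and Ednrb-/- embryos. Members were chosen by position and by measured level. They were rows of the deposited table on chromosome 14 within 10 Mb of either end of Ednrb, with Ednrb itself left out. Each reached 0.5 FPKM (fragments scaled to gene length and a total per library) in at least 4 of the 16 libraries. Of 193 rows in that interval 34 met the rule, among 56748 rows in all and 17205 that met the same filter on level. RNA was taken from 2 parts of E11.5 mouse embryos, the trunk and the caudal region. The genotypes were labelled WT and Ednrb-/-, and each genotype and region gave 4 libraries described as biological replicates. Several facts were not given in the sources used here. They are the strain, the altered part of Ednrb, the number of embryos behind a library and whether trunk and caudal pieces shared embryos. The p-values therefore measure the spread between these libraries.

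Ednrb encodes a G protein-coupled receptor for endothelins that migrating melanoblasts and enteric neural crest cells need. Genes close to an altered locus are inherited together with it, because recombination seldom separates near neighbours. Whether such linkage had a part in the values below was not tested. The neighbours of Ednrb have varied roles. They include transcription factors (Pou4f1, Dach1, Klf5, Klf12), ubiquitin pathway proteins (Mycbp2, Obi1, Uchl3), RNA processing proteins (Dis3, Rbm26), mitotic proteins (Bora, Mzt1) and adhesion proteins of neurons (Pcdh9 and the Slitrk family). The comparison asks which of these neighbours differed between the genotypes, and whether the difference varied with distance from Ednrb.

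The reads in listed genes, recovered from FPKM and gene length, numbered 34883821 to 43444905 per library. The total behind the FPKM was 1.013 to 1.035 times these reads in WT libraries and 0.9486 to 1.006 times in Ednrb-/- libraries. The deposited scaling thus differed between the genotypes, and counts with other library totals are given below. Ednrb occupies bases 104052061 to 104081838 of chromosome 14 (mm39, minus strand). It ranged from 26.2 to 41.8 FPKM in the 8 WT libraries and from 1.59 to 4.80 FPKM in the 8 Ednrb-/- libraries. All 11 posterior Hox genes (paralogs 10 to 13) passed the test as lower in trunk than in caudal tissue in both genotypes. In 3 libraries (WT caudal replicate 2 and replicate 3 of each Ednrb-/- group) Xist and the Y-linked Ddx3y both reached 5 FPKM. Counts are therefore also given without these libraries. Xist was unevenly spread over the groups. It stood at 144.8 and 147.8 FPKM in WT trunk replicates 1 and 4, 135.4 FPKM in Ednrb-/- trunk replicate 2 and 156.5 FPKM in WT caudal replicate 1. In Ednrb-/- caudal libraries it reached at most 5.719 FPKM. The part of this imbalance in the genotype comparisons was not tested. Genes of skeletal muscle and macrophages fell in both regions (6 of 6 and 7 of 7), melanoblast genes fell for 5 of 6 tested in each, and gut epithelium genes rose for 6 of 6 in caudal tissue. Of all genes tested, 19.9% fell and 21.7% rose in caudal tissue, and 13% fell in the trunk. What part the genes of these cell types had in the members' values was not tested.

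Among the members, 27 were protein-coding, 4 were long noncoding RNAs and 3 were processed pseudogenes. There were 22 on the lower coordinate side of Ednrb and 12 on the upper side. The filter chose members by level, and 28 were at or above 0.5 FPKM in all 16 libraries. The other 6 were Pcdh9, Slitrk1, Klf5, Gm41231, Gm4654 and D130009I18Rik. Of these, Pcdh9 and Slitrk1 reached the filter in all 8 WT libraries and in 5 and 4 Ednrb-/- libraries. D130009I18Rik reached it in 7 WT libraries and 1 Ednrb-/- library. D130009I18Rik was thus admitted by its WT libraries, where it is high, and the filter itself favours a lower value in Ednrb-/-. Its fall is given as a description and supports nothing. The other 33 members reached the filter in at least 4 libraries of each genotype. Just inside the filter, by their fourth-highest library, were D130009I18Rik at 0.556 FPKM and Gm4654 at 0.634 FPKM, and just outside were Gm49205 at 0.401 FPKM and the long noncoding RNA 5430440P10Rik at 0.400 FPKM. By position, the outermost members were Pcdh9 at 9.92 Mb and Tpm3-rs7 at 9.47 Mb, and the next genes at the filter lay 13.9 Mb away on the lower side and 10.9 Mb away on the upper side. Of the 159 rows outside the filter, 106 were listed at 0 in every library. The 6 protein-coding rows among them were Klhl1, Scel, Trim52, Acod1, Prr30 and Spertl. Scel, a cornified envelope gene 0.202 Mb from Ednrb, reached at most 0.470 FPKM, and Klhl1, an actin-binding protein of neurons, at most 0.511 FPKM.

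The sequences upstream of the RefSeq starts are shown for the 4 members with the largest falls shared by both regions. These genes were lower in the same libraries, and their windows differed in composition. Each run is the 250 bases before the gene's RefSeq start, in the direction of transcription, with every CG in capitals. RefSeq sequences on GRCm38.p6 matched 22 of the 34 members, and that build differs from the mm39 coordinates of the deposited table. The windows were chr14:102982638-102982887 (minus strand) for Kctd12, chr14:93890680-93890929 (minus strand) for Pcdh9, chr14:108914240-108914489 (minus strand) for Slitrk1 and chr14:104638894-104639143 (plus strand) for D130009I18Rik. Pcdh9 had 2 start windows in the RefSeq table, of which the first is shown. By the shift between builds at the other windows, the RefSeq start of D130009I18Rik lies inside its deposited gene body, which begins at 104850227. Its window therefore does not describe the start of the row whose fall is reported.
Kctd12: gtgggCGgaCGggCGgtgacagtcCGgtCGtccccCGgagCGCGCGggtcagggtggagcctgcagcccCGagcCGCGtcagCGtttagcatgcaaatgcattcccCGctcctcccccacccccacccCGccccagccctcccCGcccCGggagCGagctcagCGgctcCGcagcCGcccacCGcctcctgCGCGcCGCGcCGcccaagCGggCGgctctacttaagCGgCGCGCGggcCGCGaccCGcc
Pcdh9: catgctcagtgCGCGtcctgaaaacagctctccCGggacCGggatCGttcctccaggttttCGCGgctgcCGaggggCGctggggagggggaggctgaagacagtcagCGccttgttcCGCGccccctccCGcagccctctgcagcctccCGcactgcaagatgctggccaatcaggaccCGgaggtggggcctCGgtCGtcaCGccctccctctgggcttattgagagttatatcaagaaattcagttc
Slitrk1: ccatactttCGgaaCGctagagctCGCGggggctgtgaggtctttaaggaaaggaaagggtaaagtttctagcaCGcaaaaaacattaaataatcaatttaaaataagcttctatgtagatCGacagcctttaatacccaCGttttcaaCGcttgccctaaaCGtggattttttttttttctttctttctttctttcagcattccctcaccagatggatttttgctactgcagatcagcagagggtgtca
D130009I18Rik: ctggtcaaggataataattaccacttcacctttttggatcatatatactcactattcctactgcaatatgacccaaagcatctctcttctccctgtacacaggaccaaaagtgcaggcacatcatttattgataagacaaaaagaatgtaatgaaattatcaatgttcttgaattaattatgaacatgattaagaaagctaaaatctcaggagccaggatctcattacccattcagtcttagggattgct
The letters CG, which read the same on both strands, occurred 36 times before Kctd12, 18 times before Pcdh9 and 9 times before Slitrk1. They occurred 0 times in the window of D130009I18Rik. The median was 18.5 over the 22 matched members and 6 over all 27025 promoters of the table, of which 91.7% held at least 1 CG. The promoters of the table were not filtered by level, as the members were, so the 2 medians are not of like sets. The window before Pou4f1, which fell in caudal tissue, held 47, and that before Slain1, the gene nearest to Ednrb, held 20. Which start is used in these tissues was not measured.

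In the caudal region 16 of the 34 members passed the test between genotypes (limma, Benjamini-Hochberg adjusted p under 0.05), of which 11 fell (10 without D130009I18Rik) and 5 rose in Ednrb-/- tissue. Over all genes tested 41.6% passed in this comparison, 19.9% as lower and 21.7% as higher. The median log2 fold change of the members was -0.08, against 0.01 over all genes tested, and the median size of the change was 0.21 against 0.18. The share of members that passed was 47.1%. At least 2-fold lower and called were 3 members (Pcdh9, Slitrk1 and Pou4f1), where 2% of all genes were. Groups did not overlap for 10 members as lower (D130009I18Rik among them) and 4 as higher, where 18.2% and 19.1% of all genes did not. Without the 3 libraries with Xist and Ddx3y together 13 passed, 8 lower and 5 higher. Over all genes 6554 then passed, 3084 lower and 3470 higher, against 7164 with every library. After rescaling to TPM (transcripts scaled so that each library has the same sum) the members split into 14 lower and 4 higher, and all genes into 5017 lower and 2219 higher, against 3432 lower and 3732 higher as deposited.

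In the trunk 13 members passed, of which 8 fell (7 without D130009I18Rik) and 5 rose. The background was 25.1% of all genes tested, 13% as lower and 12.2% as higher, and the share of members was 38.2%. Their median log2 fold change was 0.02, against 0.00 over all genes tested, and the median size of the change was 0.20 against 0.13. At least 2-fold lower and called was 1 member (Pcdh9), where 0.773% of all genes were. Groups did not overlap for 8 members as lower (D130009I18Rik among them) and 5 as higher, where 14.2% and 13.9% of all genes did not. Without the 3 libraries 9 passed, 5 lower and 4 higher. Over all genes 3596 then passed, 1924 lower and 1672 higher, against 4321 with every library. Both regions called 7 members lower (among them Pcdh9, Lmo7, Kctd12, D130009I18Rik, Slitrk1 and Slitrk5), or 6 without D130009I18Rik, where 9.27% of all genes were lower in both. They called 2 members higher (Bora and Dis3), where 8.11% of all genes were higher in both. A further 7 members passed in caudal tissue alone, 4 in the trunk alone and 14 in neither, where 51% of all genes passed in neither. In opposite directions both regions called 0 members, and 0.372% of all genes. The test of the difference between regions is given with the single genes.

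The size of the changes did not fall steadily with distance from Ednrb. Under 1 Mb, 5 of 9 members passed in caudal tissue and 3 of 9 in the trunk, all of them lower. D130009I18Rik, admitted by its WT libraries, was among them in both regions. As lower, 19.9% of all genes tested passed in caudal tissue and 13% in the trunk. On the rest of chromosome 14 these shares were 20.3% and 13.7%. Between 1 and 2 Mb, 1 of 6 passed in caudal tissue and 2 of 6 in the trunk. From 2 to 5 Mb the counts were 5 and 4 of 12, and from 5 to 10 Mb they were 5 and 4 of 7. The median size of the log2 change in caudal tissue was 0.26 under 1 Mb, 0.19 from 1 to 2 Mb, 0.10 from 2 to 5 Mb and 0.44 from 5 to 10 Mb. On the rest of chromosome 14, 40.5% of 561 genes passed in caudal tissue and 26.7% in the trunk. The windows hold few genes, and their shares were not tested against each other.

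**Figure D1:**
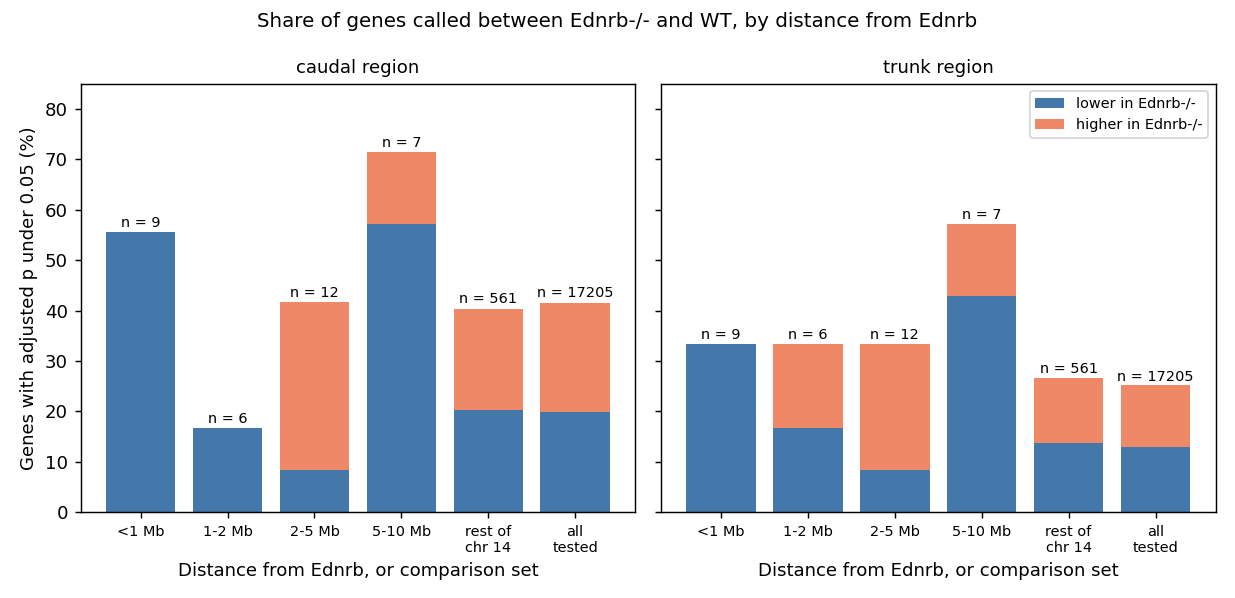
Share of genes (percent) with an adjusted p under 0.05 between Ednrb-/- and WT, in windows of distance from Ednrb, on the rest of chromosome 14 and over all genes tested, split into lower and higher. The highest bars, at 71.4% in caudal tissue and 57.1% in the trunk, are those of the 7 members from 5 to 10 Mb. Under 1 Mb every called member was lower, D130009I18Rik among them.

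The gene closest to Ednrb, Slain1, a microtubule plus-end protein 110 kb away on the plus strand, did not pass in either region. In caudal libraries 1 to 4 it stood at 3.80, 3.64, 3.99 and 4.09 FPKM in WT and at 2.86, 3.47, 4.00 and 3.43 FPKM in Ednrb-/- (log2 -0.16 ± 0.11 SE, limma adjusted p = 0.28). In the trunk it stood at 2.59, 3.37, 3.80 and 3.24 FPKM in WT and at 4.13, 4.26, 3.01 and 3.77 FPKM in Ednrb-/- (0.20 ± 0.11, adjusted p = 0.22). The genotypes overlapped in both regions. The nearest member on the other side of Ednrb was Pou4f1, at 0.617 Mb, followed by Obi1 at 0.633 Mb and D130009I18Rik at 0.768 Mb.

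**Figure D2:**
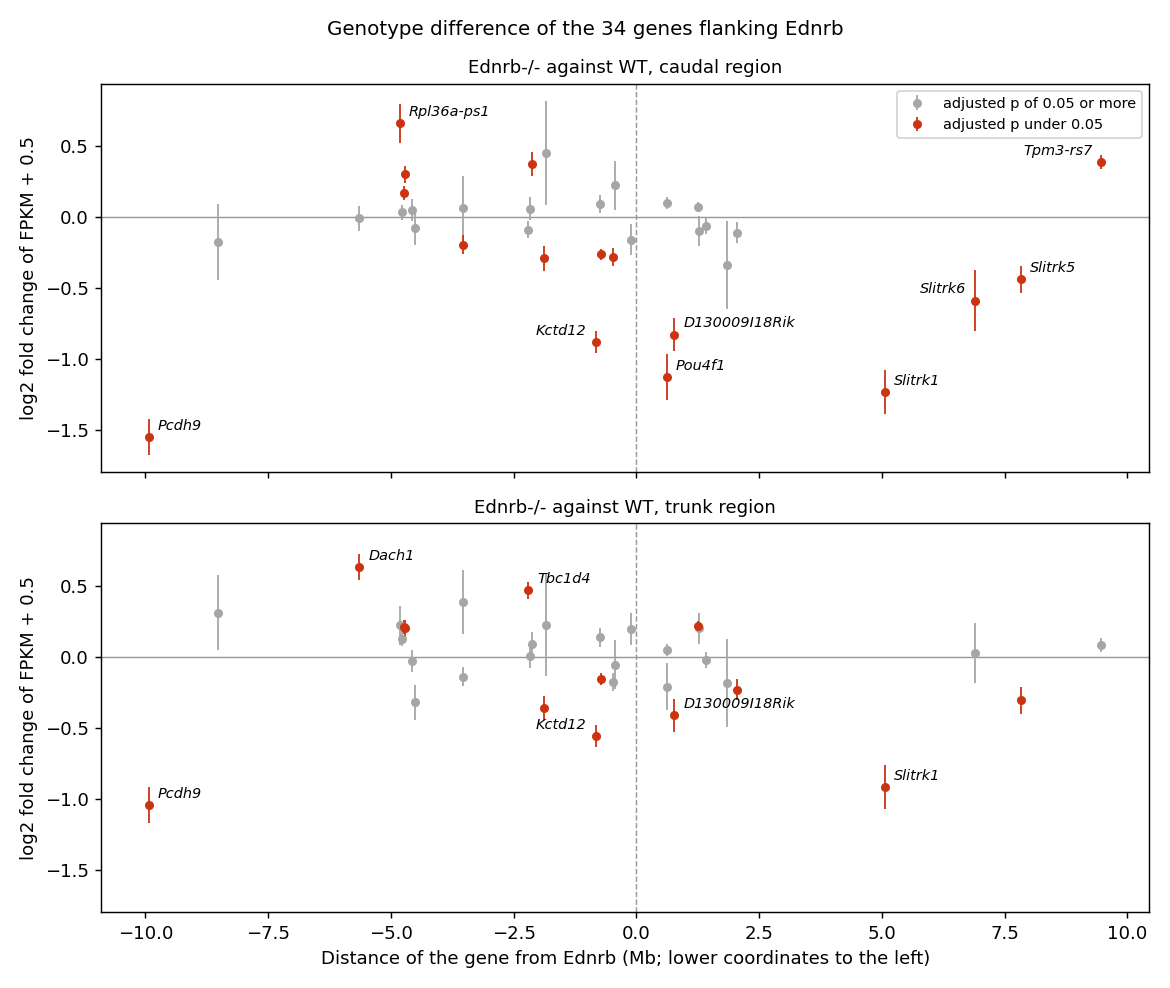
Genotype difference (log2 of FPKM + 0.5, Ednrb-/- minus WT, with its standard error) of the 34 members against their distance from Ednrb in Mb, in caudal tissue (top) and trunk (bottom); red points passed the test. The lowest points in both panels are Pcdh9 at 9.92 Mb and Slitrk1 at 5.06 Mb. Slain1, next to Ednrb, did not pass and lies at -0.16 in caudal tissue and 0.20 in the trunk.

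All 4 members that encode adhesion proteins of neurons passed as lower in caudal tissue. Slitrk6 overlapped between genotypes, and its call was lost in several settings given below. Over all genes tested 19.9% passed as lower and 21.7% as higher in caudal tissue, and 13% and 12.2% in the trunk. These shares also stand beside the counts of the other groups and lists below. Pcdh9, a protocadherin, had the largest change of the 34. In caudal libraries it stood at 2.23, 2.08, 2.11 and 2.59 FPKM in WT and at 0.488, 0.321, 0.669 and 0.322 FPKM in Ednrb-/-. The highest Ednrb-/- library lay far below the lowest WT library, with a log2 change of -1.55 ± 0.12 for Pcdh9 (adjusted p = 1.6e-06 by limma). In the trunk it stood at 3.52, 4.52, 3.85 and 4.51 FPKM in WT and at 1.70, 1.75, 2.10 and 1.40 FPKM in Ednrb-/-, again with no overlap (-1.04 ± 0.12, adjusted p = 5.8e-05). The caudal change exceeded that in the trunk by 0.50 ± 0.18, which did not pass (adjusted p = 0.095). That difference did pass without Ednrb-/- caudal replicate 3 (-0.61, adjusted p = 0.031), with a pseudocount of 0.1 (-0.94, adjusted p = 0.036) and with voom on whole reads (-1.17, adjusted p = 0.0074).

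The Slitrk genes encode transmembrane proteins that shape synapses and neurites, and 3 of them lie on the upper side of Ednrb. Slitrk1, at 5.06 Mb, stood at 1.73, 1.03, 1.49 and 1.81 FPKM in WT caudal libraries and at 0.395, 0.227, 0.476 and 0.311 FPKM in Ednrb-/- caudal libraries. In WT trunk it stood at 1.98, 2.63, 2.80 and 3.08 FPKM and in Ednrb-/- trunk at 1.44, 1.26, 1.08 and 0.846 FPKM. The genotypes did not overlap in either region, and Slitrk1 fell by 1.23 ± 0.15 in caudal tissue (limma adjusted p = 2.6e-05) and by 0.91 ± 0.15 in the trunk (adjusted p = 0.00067). Slitrk5, at 7.83 Mb, went from 4.19 ± 0.718 to 2.94 ± 0.194 FPKM in caudal tissue (SD, n = 4; log2 -0.44 ± 0.09, adjusted p = 0.0018) and from 4.78 ± 0.525 to 3.76 ± 0.115 FPKM in the trunk (-0.31 ± 0.09, adjusted p = 0.028), without overlap. Its trunk call was lost without WT trunk replicate 3 or 4 or Ednrb-/- trunk replicate 2, 3 or 4 (adjusted p 0.055 to 0.087), without the filter (0.057) and without the 3 libraries with Xist and Ddx3y together (0.073). Slitrk6, at 6.90 Mb, overlapped between genotypes. In caudal tissue it went from 4.72 ± 1.79 to 2.86 ± 0.615 FPKM (-0.59 ± 0.21, adjusted p = 0.037), a call lost without WT caudal replicate 1, 2 or 4 or Ednrb-/- caudal replicate 2 or 4 (adjusted p 0.054 to 0.13), without the 3 libraries (0.081), without the filter (0.084) and with only the groups compared in the fit (0.1). Trunk levels of Slitrk6 were 5.53 ± 1.13 and 5.57 ± 0.327 FPKM (0.03 ± 0.21, adjusted p = 0.94). The regions' changes differed by -0.62 ± 0.30 (adjusted p = 0.23), and by -0.86 without WT caudal replicate 3 (adjusted p = 0.04).

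The Slitrk genes elsewhere in the genome were set beside these. Of 3, 2 fell in each region. Slitrk2 fell by 0.58 in caudal tissue (limma adjusted p = 6.3e-06) and by 0.22 in the trunk (adjusted p = 0.015), and Slitrk3 by 0.83 (adjusted p = 0.00028) and 0.95 (adjusted p = 0.00026). Slitrk4 did not pass in either region (-0.22, adjusted p = 0.1, and -0.25, adjusted p = 0.095). General neuron genes (Tubb3, Stmn2, Elavl3, Elavl4, Dcx, Nefl, Snap25) fell for 7 of 7 in caudal tissue and for 0 of 7 in the trunk, and their summed level was 304 to 425 FPKM in WT caudal, 122 to 231 FPKM in Ednrb-/- caudal, 388 to 488 FPKM in WT trunk and 352 to 421 FPKM in Ednrb-/- trunk libraries. None of them was listed at 0 in every library. The part of this difference in the levels of single members was not tested, and in bulk tissue fewer cells of a type and less RNA per cell cannot be told apart.

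**Figure D3:**
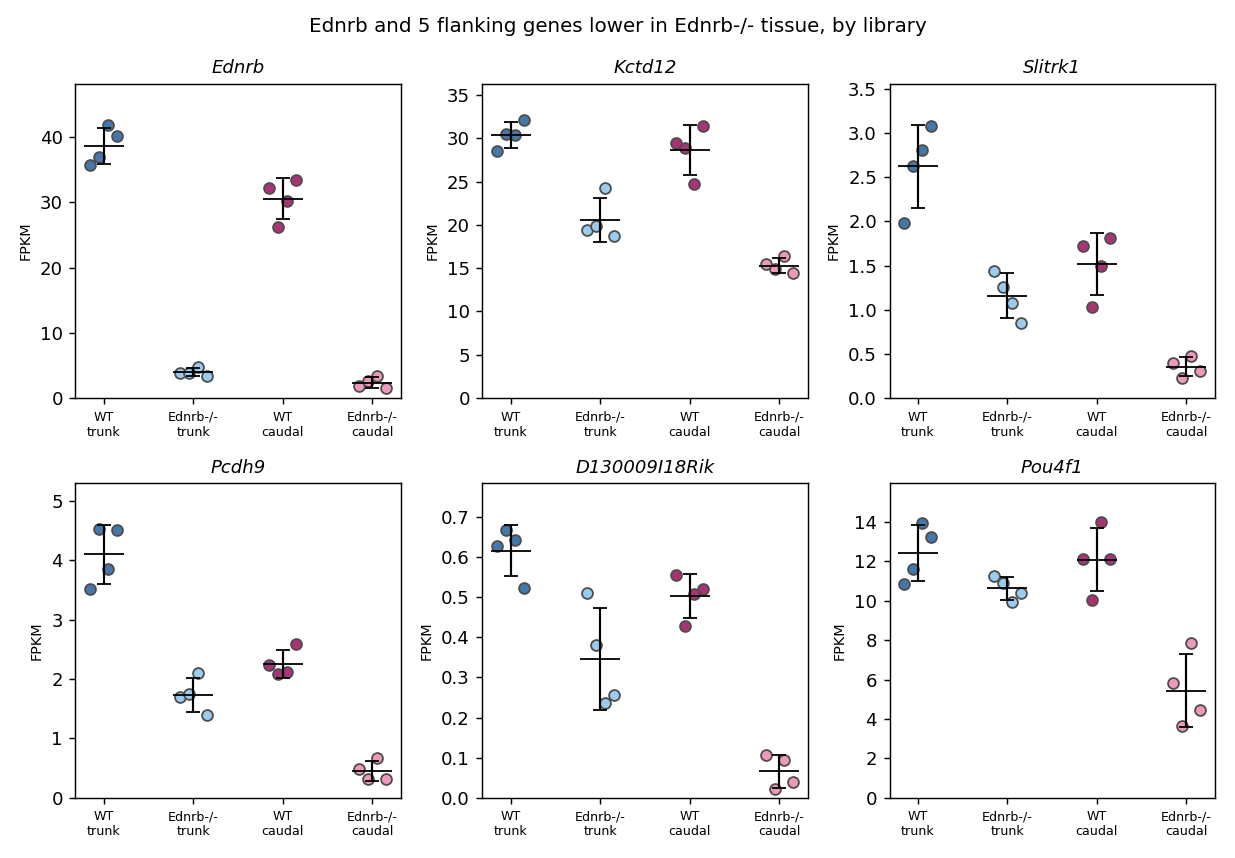
FPKM of Ednrb and 5 flanking genes in each library, by genotype and region (4 libraries each), with the mean as a line and the SD as bars. Kctd12, Slitrk1, Pcdh9 and D130009I18Rik were lower in Ednrb-/- libraries of both regions without overlap, and Pou4f1 was lower without overlap in caudal tissue, at 3.63 to 7.84 FPKM.

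Of the 4 transcription factors, 2 fell in caudal tissue and 1 rose in the trunk. Pou4f1 (Brn3a), a POU factor of sensory neurons, stood at 12.1, 10.1, 14.0 and 12.1 FPKM in WT caudal libraries and at 5.84, 3.63, 7.84 and 4.44 FPKM in Ednrb-/- caudal libraries. It fell by 1.12 ± 0.16 there without overlap (limma adjusted p = 7.9e-05). Trunk libraries overlapped, at 10.8, 11.6, 13.9 and 13.2 FPKM in WT and 11.3, 10.9, 9.93 and 10.4 FPKM in Ednrb-/- (-0.21 ± 0.16, adjusted p = 0.38). The caudal change differed from that in the trunk by -0.91 ± 0.23 (interaction adjusted p = 0.029). That call was lost without WT trunk replicate 1 or 2, Ednrb-/- trunk replicate 1, WT caudal replicate 1, 3 or 4 or Ednrb-/- caudal replicate 4 (adjusted p 0.051 to 0.066) and without the filter (0.07). Over all genes 6.76% passed in the interaction, and 4 of the 34 members did. The genotype change, not the level, was lower in caudal tissue than in the trunk for 3 (Pou4f1, Dach1 and Tbc1d4). It was higher for 1 (Tpm3-rs7). Over all genes tested these shares were 3.78% and 2.98%.

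Of 11 tested genes of sensory neurons and their progenitors, 6 fell and 2 rose in caudal tissue, and 3 fell and 4 rose in the trunk. The summed level of the list overlapped between genotypes, at 77.3 to 81.8 FPKM in WT caudal and 72.2 to 84.6 FPKM in Ednrb-/- caudal libraries. Runx3 and Ntrk3, which mark proprioceptive neurons, fell by 1.21 and 1.05 in caudal tissue (limma adjusted p = 1e-05 and 9.3e-06), and Prph, an intermediate filament of peripheral neurons, by 2.06 (1.4e-05). Isl1 rose there by 0.26 (adjusted p = 0.009) and Neurog2, a proneural factor, by 0.60 (0.0012). In the Ednrb-/- caudal libraries the order of Pou4f1 from replicate 3 to 1 to 4 to 2 was also that of the summed neuron genes (231, 193, 140 and 122 FPKM). Replicate 3 of that group was the highest of the 4 for 6 of the 11 members that fell in caudal tissue, and replicate 1 for 4. Replicate 2 was the lowest for 6 of them. The order of Ednrb was another, from replicate 3 to 2 to 1 to 4 (3.44, 2.55, 1.77 and 1.59 FPKM). Whether these orders are related was not tested.

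Dach1, a transcriptional cofactor that acts with the Eya proteins, rose in the trunk. It stood at 5.53, 6.48, 7.66 and 6.82 FPKM in WT trunk libraries. Ednrb-/- trunk libraries averaged 10.5 ± 0.735 FPKM (SD, n = 4), the lowest at 9.91 FPKM, without overlap (0.63 ± 0.09, limma adjusted p = 0.00018). Caudal levels were 12.4 ± 1.33 and 12.2 ± 0.783 FPKM (SD, n = 4; -0.01 ± 0.09, adjusted p = 0.95), and the changes of the 2 regions differed (-0.64 ± 0.13, interaction adjusted p = 0.0098). Among 7 related genes elsewhere (among them Dach2, Eya1, Eya2 and Eya4), 5 rose and 1 fell in the trunk, and 2 rose and 1 fell in caudal tissue. Eya2 rose by 0.42 in the trunk (adjusted p = 0.016) and stood at 0.01 in caudal tissue (adjusted p = 0.94), while Eya1 rose in trunk and caudal tissue (0.36 and 0.34, adjusted p = 0.0052 and 0.0036) and Eya4 fell in them (-0.44 and -0.33, adjusted p = 0.017 and 0.047).

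Klf12, a Kruppel-like repressor at 3.53 Mb, went from 8.43 ± 0.431 to 7.29 ± 0.32 FPKM in caudal tissue without overlap (SD, n = 4; -0.20 ± 0.07, limma adjusted p = 0.03). This call was lost without WT caudal replicate 1 or 4 or Ednrb-/- caudal replicate 2, 3 or 4 (adjusted p 0.052 to 0.088), without the filter (0.059) and without the 3 libraries with Xist and Ddx3y together (0.07). Klf5, an epithelial factor, was low, between 0.456 and 1.15 FPKM in all libraries. Its trunk libraries did not overlap (WT 0.787 ± 0.154, Ednrb-/- 0.527 ± 0.0645 FPKM), but it did not pass (-0.32 ± 0.12, adjusted p = 0.069). With voom on whole reads it did (adjusted p = 0.025).

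Of 6 tested members of the ubiquitin and protein turnover group, 3 fell and 1 rose in caudal tissue and 2 fell in the trunk. The group as listed includes Kctd12, which was 1 of those that fell in each region. Kctd12, an auxiliary subunit of GABA-B receptors from the KCTD family, lies 0.832 Mb from Ednrb and was the called member of highest level within 1 Mb. It stood at 29.5, 28.9, 24.7 and 31.5 FPKM in WT caudal libraries and at 15.5, 14.9, 16.4 and 14.4 FPKM in Ednrb-/- caudal libraries. WT trunk libraries held 28.5, 30.5, 30.4 and 32.1 FPKM and Ednrb-/- trunk libraries 19.4, 19.9, 24.3 and 18.7 FPKM. No Ednrb-/- library reached a WT library of its region. Kctd12 fell by 0.88 ± 0.08 in caudal tissue (limma adjusted p = 3.1e-06) and by 0.56 ± 0.08 in the trunk (adjusted p = 0.0002). The difference between the regions did not pass (-0.32 ± 0.11, adjusted p = 0.099), although it did without WT caudal replicate 3 (-0.39, adjusted p = 0.04).

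Mycbp2, a large ubiquitin ligase of axons 0.468 Mb from Ednrb, went from 10.4 ± 0.845 to 8.42 ± 0.286 FPKM in caudal tissue without overlap (SD, n = 4; -0.28 ± 0.06, limma adjusted p = 0.0026). In the trunk Mycbp2 overlapped (-0.17 ± 0.06, adjusted p = 0.057), and it passed there without WT trunk replicate 1 (-0.23, adjusted p = 0.011) and with voom (-0.22, adjusted p = 0.015).

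Uchl3, a ubiquitin hydrolase at 2.12 Mb, rose in caudal tissue. It stood at 8.12, 8.05, 8.29 and 7.37 FPKM in WT and at 10.5, 12.7, 8.78 and 10.1 FPKM in Ednrb-/- caudal libraries, without overlap (0.37 ± 0.08, limma adjusted p = 0.0022). Trunk libraries overlapped (0.09 ± 0.08, adjusted p = 0.47), and the regions' changes did not differ by the test (0.28 ± 0.12, adjusted p = 0.16) except without Ednrb-/- caudal replicate 3 (0.36, adjusted p = 0.041). Obi1, a ligase at replication origins, held 15.0 to 18.2 FPKM over the 16 libraries and passed in neither region (0.10 and 0.05, adjusted p = 0.077 and 0.42). Ndfip2, an adaptor of NEDD4 ligases, did not pass as deposited either (-0.06 and -0.02, adjusted p = 0.42 and 0.82).

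A cluster of 4 genes near 4.7 Mb on the lower side, Mzt1, Bora, Dis3 and Pibf1, is arranged as adjacent pairs on opposite strands. Mzt1, a subunit of gamma-tubulin complexes, starts at 99283570 on the minus strand. Bora, an activator of Aurora A kinase, starts at 99283658 on the plus strand. Dis3, the catalytic exosome subunit, starts at 99337206 on the minus strand. Its start overlaps that of Pibf1, a centrosomal protein, by 347 bases. With the strand setting unknown, reads from those bases could not be assigned with certainty.

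In each pair 1 gene rose in both regions and the other passed in neither. Dis3 stood at 14.3, 14.2, 14.9 and 12.8 FPKM in WT caudal libraries and at 16.1, 19.8, 16.2 and 17.7 FPKM in Ednrb-/- caudal libraries (0.30 ± 0.06, limma adjusted p = 0.00099). In the trunk it stood at 13.4, 12.4, 13.4 and 13.1 FPKM in WT and at 15.5, 14.7, 15.3 and 14.8 FPKM in Ednrb-/- (0.20 ± 0.06, adjusted p = 0.024). The genotypes did not overlap, but the trunk call was lost without WT trunk replicate 2 or Ednrb-/- trunk replicate 1 or 3 (adjusted p 0.055 to 0.072) and without the 3 libraries with Xist and Ddx3y together (0.064). Pibf1 held 2.20 to 2.81 FPKM and changed by 0.05 ± 0.08 and -0.03 ± 0.08 (adjusted p = 0.64 and 0.81). Bora rose by 0.17 ± 0.05 in caudal tissue (adjusted p = 0.01), from 14.0 ± 0.811 to 15.8 ± 0.914 FPKM (SD, n = 4). In the trunk Bora rose by 0.21 ± 0.05 (adjusted p = 0.0052), from 12.2 ± 0.397 to 14.1 ± 0.488 FPKM without overlap. The caudal call of Bora was lost after rescaling to TPM (0.07, adjusted p = 0.25) and with voom on the sum of listed reads (0.11, adjusted p = 0.096). Mzt1 was the member of highest level, at 36.5 to 44.2 FPKM, and changed by 0.03 ± 0.05 and 0.13 ± 0.05 (adjusted p = 0.65 and 0.075), the latter passing without WT trunk replicate 3 (0.16, adjusted p = 0.05).

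Rbm26, a zinc finger protein of nuclear RNA processing at 1.26 Mb, rose in the trunk. It stood at 22.3, 22.7, 22.8 and 22.1 FPKM in WT and at 26.7, 25.3, 27.5 and 25.4 FPKM in Ednrb-/- trunk libraries, without overlap (0.22 ± 0.03, limma adjusted p = 0.00036). In caudal tissue it changed by 0.07 ± 0.03 (adjusted p = 0.092). Gm17066, a long noncoding RNA annotated inside Rbm26 on the same strand, passed in neither region (-0.10 in caudal tissue and 0.20 in the trunk, adjusted p = 0.5 and 0.19). Its 5287 bases lie wholly within Rbm26, and reads of the pair could not be told apart with certainty.

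**Figure D4:**
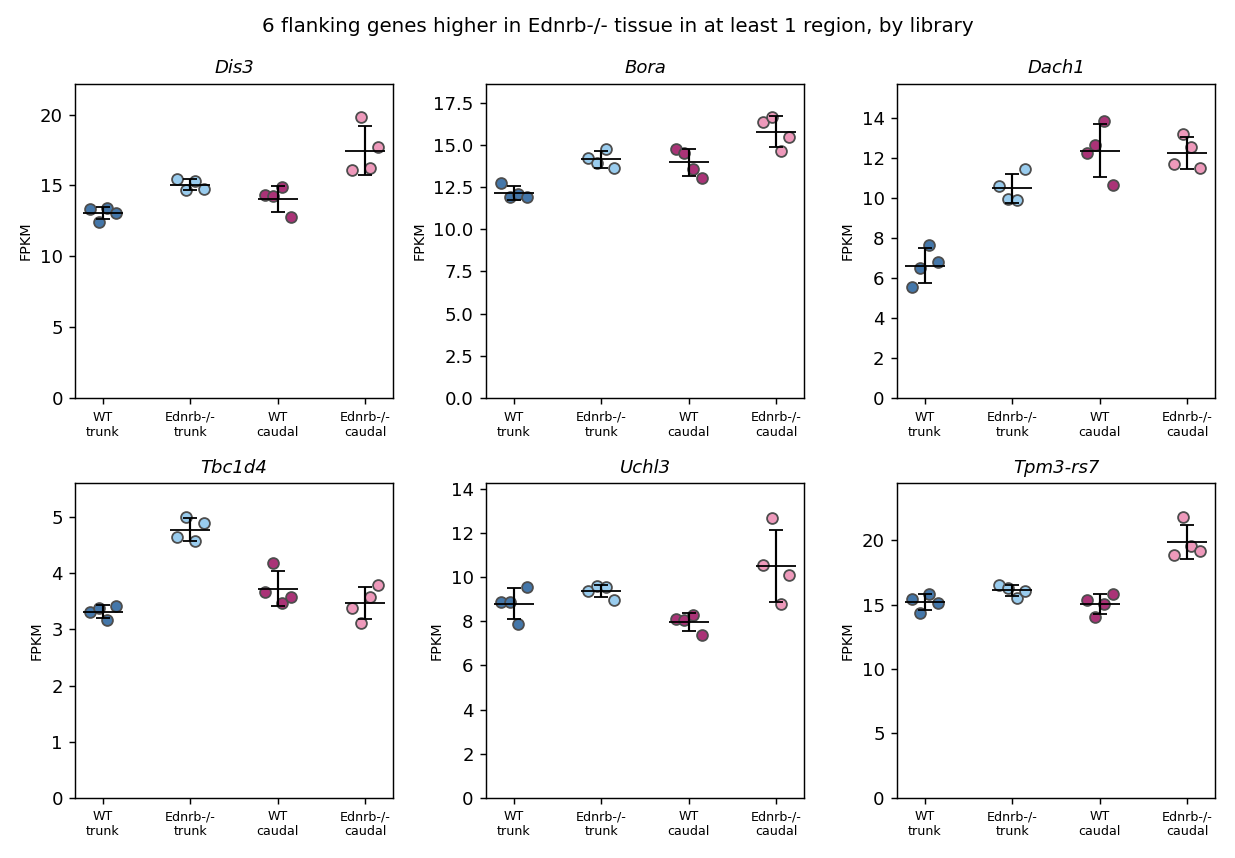
FPKM of 6 flanking genes in each library, by genotype and region (4 libraries each), with the mean as a line and the SD as bars. Dis3 was higher in Ednrb-/- libraries of both regions, Dach1 and Tbc1d4 in the trunk alone, and Uchl3 and Tpm3-rs7 in caudal tissue without overlap.

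Of 5 signalling, cytoskeleton and traffic genes, 1 fell in caudal tissue, and 2 fell and 1 rose in the trunk. Tbc1d4 (AS160), a Rab GTPase-activating protein of glucose transporter traffic, stood at 3.31, 3.38, 3.17 and 3.42 FPKM in WT trunk libraries and at 4.65, 5.00, 4.57 and 4.90 FPKM in Ednrb-/- trunk libraries. These groups were well apart (0.47 ± 0.06, limma adjusted p = 0.00013). Caudal libraries overlapped, at 3.72 ± 0.313 and 3.47 ± 0.286 FPKM (SD, n = 4; -0.09 ± 0.06, adjusted p = 0.28), and the changes of the regions differed (-0.56 ± 0.09, interaction adjusted p = 0.0037). After rescaling to TPM the caudal value passed as lower (-0.18, adjusted p = 0.036).

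Lmo7, a LIM domain protein of cell junctions at 1.88 Mb, fell in both regions from low levels. It went from 1.27 ± 0.189 to 0.943 ± 0.0707 FPKM in caudal tissue (SD, n = 4; -0.29 ± 0.09, limma adjusted p = 0.015) and from 1.14 ± 0.076 to 0.781 ± 0.0831 FPKM in the trunk (-0.36 ± 0.09, adjusted p = 0.0074), without overlap. The caudal call was lost without WT caudal replicate 4 (adjusted p = 0.054) and without the 3 libraries with Xist and Ddx3y together (0.099). Commd6, a COMM domain protein beside Tbc1d4, did not pass (0.06 in caudal tissue and 0.00 in the trunk, adjusted p = 0.62 and 0.99).

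Spry2, a feedback inhibitor of FGF receptor signalling at 2.05 Mb, stood at 15.9, 18.4, 14.5 and 17.6 FPKM in WT trunk and at 13.9, 13.3, 14.0 and 15.0 FPKM in Ednrb-/- trunk libraries. The groups overlapped, and Spry2 fell by 0.23 ± 0.07 (limma adjusted p = 0.034). The call was lost without WT trunk replicate 2 or 4 or Ednrb-/- trunk replicate 1, 2 or 3 (adjusted p 0.063 to 0.11), without the filter (0.069) and without the 3 libraries (0.051). In caudal tissue it changed by -0.11 ± 0.07 (adjusted p = 0.26), or by -0.21 after rescaling to TPM (adjusted p = 0.044). Of 8 other FGF feedback genes 5 rose and 0 fell in the trunk, and 2 rose and 0 fell in caudal tissue. Dusp6, a phosphatase of ERK, rose by 0.44 in the trunk (adjusted p = 0.00039) and by 0.28 in caudal tissue (0.0037), and Etv4 rose by 0.51 in the trunk (0.0002).

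D130009I18Rik, a long noncoding RNA on the plus strand 0.768 Mb from Ednrb, was the member of lowest level. It stood at 0.556, 0.427, 0.509 and 0.520 FPKM in WT caudal libraries and at 0.107, 0.0231, 0.0951 and 0.0390 FPKM in Ednrb-/- caudal libraries, where the lowest library held 6 reads. The genotypes did not overlap in caudal tissue (-0.83 ± 0.12, limma adjusted p = 6.2e-05). In the trunk it went from 0.616 ± 0.0636 to 0.346 ± 0.127 FPKM (SD, n = 4; -0.41 ± 0.12, adjusted p = 0.017), a call that did not hold without replicate 3 (0.055) or 4 (0.056) of the Ednrb-/- trunk group and without the 3 libraries (0.07). At this level the added 0.5 FPKM shrinks the fold change. The regions' changes did not differ by the test (-0.42 ± 0.16, adjusted p = 0.14), but with voom on whole reads they did (-2.28, adjusted p = 0.0044).

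Several members are copies of genes elsewhere, so reads shared with the source gene could not be assigned with certainty. Tpm3-rs7, a tropomyosin 3 related sequence, stood at 15.4, 14.0, 15.0 and 15.8 FPKM in WT caudal and at 18.9, 21.8, 19.5 and 19.1 FPKM in Ednrb-/- caudal libraries (0.39 ± 0.05, limma adjusted p = 2.8e-05). Its trunk change was 0.08 ± 0.05 (adjusted p = 0.25), and the regions differed (0.31 ± 0.07, interaction adjusted p = 0.018), a call lost without the 3 libraries with Xist and Ddx3y together (0.26, adjusted p = 0.062). Tpm3 itself, named after the values were seen, rose by 0.19 in caudal tissue (adjusted p = 0.0017). Rpl36a-ps1, a ribosomal protein copy, rose in caudal tissue from 3.54 ± 0.858 to 5.79 ± 0.784 FPKM without overlap (SD, n = 4; 0.66 ± 0.14, adjusted p = 0.0015), and Rpl36a, at 120 FPKM in WT caudal tissue and likewise named afterwards, rose by 0.41 (2.1e-05).

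Among pseudogenes and noncoding rows that passed in no comparison, libraries of 1 group lay far apart. Gm5854 stood at 31.7, 30.6, 8.91 and 10.3 FPKM in WT trunk and at 25.7, 25.6, 16.1 and 16.3 FPKM in Ednrb-/- trunk libraries (limma adjusted p = 0.7). Gm10076 ranged from 17.3 to 59.2 FPKM within WT trunk. Gm48990, Gm4654 and Gm41231 rested on 7 to 45 reads per library, and their genotype changes lay between -0.18 and 0.38 with adjusted p from 0.24 to 0.86.

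**Figure D5:**
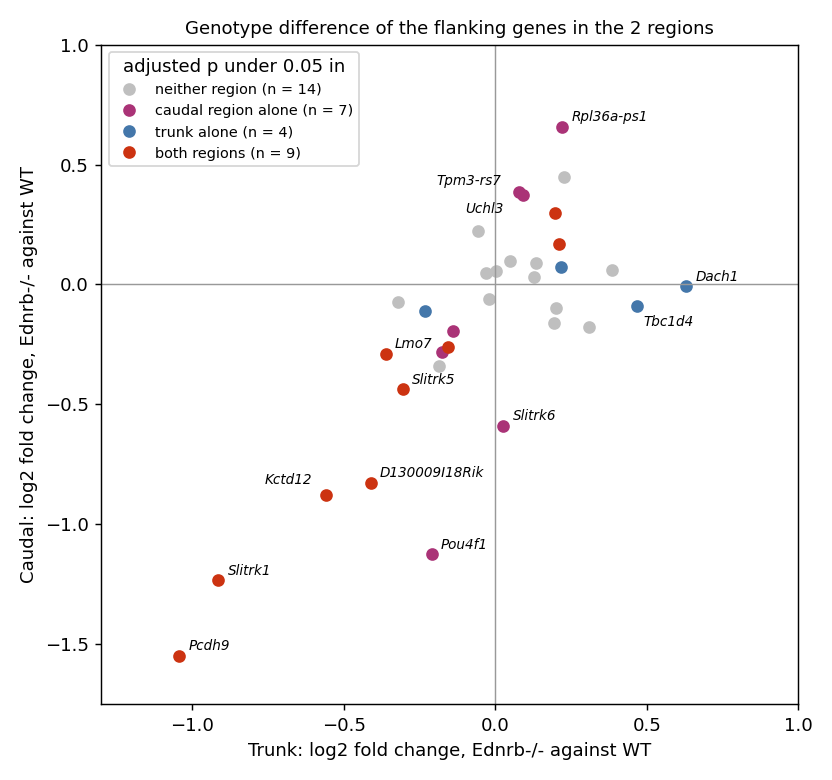
Genotype difference of the 34 members in caudal tissue (vertical axis) against the trunk (horizontal axis), both as log2 fold change of FPKM + 0.5, coloured by the regions in which the adjusted p was under 0.05. The 9 members called in both regions lie at the lower left or upper right, and Dach1 and Tbc1d4 on the right moved in the trunk alone.

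Between the regions of WT embryos 5 of the 34 members passed, where 18% of all genes tested did. Pcdh9 (0.74), Slitrk1 (0.64) and Spry2 (0.35) were higher in trunk (9.69% of all genes), and Dach1 (-0.85) and Bora (-0.19) were lower in trunk (8.35%), as log2 differences of trunk minus caudal (limma adjusted p from 1.3e-05 for Dach1 to 0.012 for Bora). In Ednrb-/- embryos 15 members passed, where 36.2% of all genes did. Of these, 10 were higher and 5 lower in trunk, where 17.3% and 18.9% of all genes were. After rescaling to TPM 13 were higher and 2 lower, and all genes split into 3936 and 1945, against 2982 and 3252 as deposited. Groups did not overlap for 10 members as higher and 7 as lower in Ednrb-/- trunk (17% and 16.8% of all genes), and for 2 and 6 in WT trunk (11% and 10.3%). These comparisons use the same libraries as those between genotypes. Higher in Ednrb-/- trunk were Pcdh9 (1.24), Slitrk1 (0.96), Pou4f1 (0.95), Slitrk6 (0.88), D130009I18Rik (0.57), Kctd12 (0.41), Tbc1d4 (0.41), Slitrk5 (0.31), Spry2 (0.24) and Mycbp2 (0.18).

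Lower in Ednrb-/- trunk than in Ednrb-/- caudal tissue were Rpl36a-ps1 (-0.45), Klf5 (-0.36), Tpm3-rs7 (-0.29), Dis3 (-0.20) and Bora (-0.15). Without the 3 libraries with Xist and Ddx3y together Mycbp2, Klf5 and Slitrk5 lost this call (0.15, 0.15 and 0.055). Some of these 15 calls were also lost when 1 Ednrb-/- library was left out (limma). For Mycbp2 this held for trunk replicates 1, 3 and 4 and caudal replicates 2, 3 and 4 (adjusted p 0.058 to 0.1), and for Klf5 for trunk replicates 1, 3 and 4 and caudal replicates 3 and 4 (0.051 to 0.11). Bora lost its call without trunk replicate 2 or 4 or caudal replicate 1 or 2 (0.052 to 0.075), and Rpl36a-ps1 without trunk replicate 2 or caudal replicate 1 or 2 (0.051 to 0.061). Spry2 lost it without trunk replicate 4 or caudal replicate 2 (0.06 and 0.075), Dis3 without caudal replicate 2 (0.053) and Slitrk5 without caudal replicate 1 (0.051). Other settings ended some of these calls too. With TPM these were Bora (-0.08, 0.2), Dis3 (-0.13, 0.058) and Klf5 (-0.31, 0.068), and without the filter Klf5 (0.077) and Mycbp2 (0.071). With voom on the sum of listed reads they were Bora (-0.12, 0.067) and Rpl36a-ps1 (-0.45, 0.056). Ndfip2 and Dach1 passed without trunk replicate 4 (0.038 and 0.046), and Uchl3 without caudal replicate 3 (0.028).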

How the data were processed

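Total RNA was isolated with TRIzol, per the labels' protocols. The submitters' processing notes name fastp, the aligner HISAT2 (2.0.5), the counter featureCounts (1.5.0-p3) and the mouse build mm39. Annotation release, strandedness of the counting and treatment of multimapping reads were not given in the sources used here. The deposited values are FPKM, 1 column per library, per the file headers. FPKM multiplied by gene length gave whole reads for 100% of values within 0.01.

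Groups were taken from the sample titles. The test was limma 3.58.1 (R 4.3.3) on log2(FPKM + 0.5) over the 17205 genes that reached 0.5 FPKM in 4 or more libraries, fitted as 4 group means with a mean-dependent prior for the variance. P-values were adjusted over all of these genes (Benjamini-Hochberg) and called at an adjusted p under 0.05. Fold changes are on this scale, with their standard error, and understate the change of low genes. No 2 libraries of the same group were duplicates (chi-square per degree of freedom at least 5.795). Pairs across groups were not compared in this way. Distance is the gap between gene bodies. The genes and lists were chosen with earlier results of these data known. Members were described by role, with lists of related genes chosen by function, and some items are not reported here. Alternatives were other pseudocounts (0.1 and 1), other filters, TPM and median-of-ratios scaling, fits of the compared groups, a replicate block, voom on whole reads and left-out libraries. The procedure was tested on simulated data drawn for fewer genes than were tested here, with a far smaller part of them changed than was called here. There the share of false calls stayed under the threshold for the caudal comparison and exceeded it for the trunk. Because the settings differ, this does not give the share of false calls in these data. Promoter sequences are from RefSeq (GRCm38.p6). Figures were drawn with matplotlib 3.10.9.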

Additional observations from a re-analysis of the deposited data

Results flagged for a closer look

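In 3 of 140 groups of 4 libraries (the 34 members and Ednrb in each group), 1 library stood far from the other 3 relative to the group's range, where chance gives about 1 in 20. Ndfip2 was high in WT caudal replicate 3 (5.245 FPKM, the others 4.819 to 4.834). Pibf1 was low in WT trunk replicate 4 (2.204 FPKM, the others 2.75 to 2.815). The pseudogene Gm48990 was high in Ednrb-/- caudal replicate 2 (3.01 FPKM, the others 1.027 to 1.259).

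The genotype difference of 4 members differed between the regions by the interaction test (caudal minus trunk, limma). The log2 values were -0.64 for Dach1 (adjusted p = 0.0098), -0.56 for Tbc1d4 (adjusted p = 0.0037), -0.91 for Pou4f1 (adjusted p = 0.029) and 0.31 for Tpm3-rs7 (adjusted p = 0.018). General neuron genes differed between the regions in the same direction as Pou4f1 (7 of 7 with a lower value in the interaction, median -0.95), and their part in the Pou4f1 value was not tested.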

How the results depend on the processing

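The number of members called stayed within 1.5 times its value as reported in every alternative, except that voom on whole reads with the sum of listed reads called 7 members in the interaction, against 4. With that total exchanged for the one behind the FPKM, an alternative chosen after the data were seen, it called 6. Leaving out 1 library at a time gave 13 to 16 members in caudal tissue, 9 to 14 in the trunk, 5 to 5 between regions in WT, 10 to 14 between regions in Ednrb-/- and 3 to 6 in the interaction. No call of a member turned its direction under any alternative. The labels do not tie equal replicate numbers together, and deviations of same-numbered libraries correlated between -0.084 and 0.109, so the numbers were not taken as pairs. With a replicate block 16, 14, 5, 14 and 4 members were called in the same order, Mzt1 gaining a call in the trunk (0.13, adjusted p = 0.049) and Mycbp2 losing 1 between the regions of Ednrb-/- (0.18, adjusted p = 0.057). The block changed no other call. A filter at 1 FPKM left 31 of the 34 members. The split of all genes moved with the library total used. Voom with the sum of listed reads called 2630 higher and 4430 lower in caudal tissue, 1742 and 2951 in the trunk, 3529 and 2633 between regions in Ednrb-/- and 449 and 1187 in the interaction (513 and 650 as deposited, 299 and 1130 with TPM). With the total behind the FPKM these were 3713 and 3455, 2261 and 2453, 3061 and 3297, and 559 and 1013. Depth limits D130009I18Rik, Gm41231, Gm4654 and Gm48990, whose lowest libraries held 6, 7, 8 and 16 reads.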
